A study of Homo sapiens with 6 samples.

Results

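The E2F transcription factors and the retinoblastoma proteins that bind them were examined in 22Rv1 cells, an established human prostate carcinoma line, after knockdown of the chromatin reader ZMYND11. The 10 genes were taken by symbol from the 35322 symbols of the count table. They comprised the activators E2F1, E2F2 and E2F3, the canonical repressors E2F4 and E2F5, the atypical repressors E2F7 and E2F8, and the pocket proteins RB1, RBL1 (p107) and RBL2 (p130). All 10 were among the 16510 genes that passed the filter on low counts and were tested. The 6 libraries were 2 of control cells, 2 of a first knockdown (labelled ZM11-kd1, here kd1) and 2 of a second (ZM11-kd2, here kd2). The labels give the control cells as WT and state no treatment, whereas the study describes control shRNAs with stable lentiviral silencing, so whether the controls carried a vector is not settled. Which shRNA each knockdown carried is not stated, nor whether the 2 libraries of a group came from separate cultures, so the p-values measure the spread between these libraries, which may be technical.

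E2F proteins bind DNA with a DP partner, the atypical members excepted, and set the timing of genes for DNA replication and nucleotide synthesis at the passage from G1 into S phase. Pocket proteins bind E2Fs in quiescent and early G1 cells and hold their target genes down. Phosphorylation by cyclin-dependent kinases releases them. RB1 pairs mainly with the activators, whereas RBL1 and RBL2 pair with E2F4 and E2F5 in the DREAM complex, and E2F7 and E2F8 close the wave of transcription without a pocket protein. Several members are themselves E2F target genes, and loss of RB1 is common in advanced prostate cancer.

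The bases before the transcription start are shown for 7 members because they show where E2F site letters lie, or are missing, in genes that fell and in E2F4, whose level moved little. They are the 120 bases before the RefSeq start (GRCh38.p14), written from 5′ to 3′ on the strand of the gene, with matches to the E2F site spellings TTTCCCGC, TTTGGCGC or TTTCGCGC on either strand in capitals.
E2F1, chr20:33686386-33686505, minus strand: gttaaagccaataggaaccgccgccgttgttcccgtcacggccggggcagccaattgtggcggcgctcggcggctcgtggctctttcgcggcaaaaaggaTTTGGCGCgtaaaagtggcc
E2F2, chr1:23531234-23531353, minus strand: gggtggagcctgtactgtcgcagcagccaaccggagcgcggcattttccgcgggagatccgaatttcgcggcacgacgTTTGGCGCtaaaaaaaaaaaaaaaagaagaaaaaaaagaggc
E2F3, chr6:20401759-20401878, plus strand: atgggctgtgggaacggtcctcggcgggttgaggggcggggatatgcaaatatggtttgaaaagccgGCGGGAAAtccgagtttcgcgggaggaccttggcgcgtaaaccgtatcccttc
E2F7, chr12:77065570-77065689, minus strand: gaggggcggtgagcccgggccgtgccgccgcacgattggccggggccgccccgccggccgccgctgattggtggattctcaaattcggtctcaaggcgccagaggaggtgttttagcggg
RBL1, chr20:37095998-37096117, minus strand: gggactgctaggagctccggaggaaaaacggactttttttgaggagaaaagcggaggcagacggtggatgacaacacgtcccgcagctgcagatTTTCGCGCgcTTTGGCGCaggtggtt
RBL2, chr16:53434351-53434470, plus strand: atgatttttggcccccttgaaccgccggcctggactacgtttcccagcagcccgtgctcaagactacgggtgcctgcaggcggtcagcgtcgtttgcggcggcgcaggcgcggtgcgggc
E2F4, chr16:67192035-67192154, plus strand: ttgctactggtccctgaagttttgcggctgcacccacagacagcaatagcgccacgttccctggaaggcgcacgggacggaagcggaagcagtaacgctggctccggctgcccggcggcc

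In windows from 250 bases before to 50 bases after the start, RefSeq gave at least 1 window for 8 of the 10 members and 10 windows in all. E2F1 held TTTGGCGC at positions -20 to -13 from the start and E2F2 held it at -42 to -35. RBL1 held TTTCGCGC at -26 to -19 and TTTGGCGC at -16 to -9, and no matches overlapped. E2F3 held TTTCCCGC on the opposite strand at -53 to -46 of the first of its starts, and TTTGAA, the spelling of the cell cycle homology element, at -65 to -60. TTTGAA also lay at 25 to 30 after the first RBL2 start. No E2F spelling was found in the windows of E2F4, E2F7, RB1 or RBL2, which says nothing of the factors that may bind there. The first RBL2 start, shown here, lay 494 bases from the annotated start of the gene. The RB1 window lay at an internal start 172706 bases from the annotated start of the gene and is not shown. Of 35116 windows of all genes, 1.63% held TTTCCCGC, 0.652% TTTGGCGC, 0.515% TTTCGCGC and 15.2% TTTGAA on either strand. At least 1 of the E2F spellings lay in a window of 4 of the 8 members, of 14 of 24 genes of the G1/S target list described later (58.3%), and of 3.30% of 27305 genes.

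The libraries held from 26844128 to 38193748 counts, and all comparisons came from one fit of the 3 groups with edgeR's quasi-likelihood test. ZMYND11 itself fell in both knockdowns, from 4283 and 4179 counts in control to 941 and 773 in kd1 and 770 and 779 in kd2, a log2 fold change of -2.35 ± 0.07 (SE) and -2.64 ± 0.07. The log2 difference of the second knockdown from the first was -0.28 ± 0.07 (edgeR adjusted p = 0.00265), which became -0.098 (adjusted p = 0.259) with library totals alone as the scale and -0.61 with a correction for the GC content and length of genes. The 7 markers of prostate epithelium were all detected, at 2195 to 2971 summed normalized CPM (counts scaled to the TMM size of each library), endothelial markers summed to at most 0.196 with KDR at 0, and leukocyte markers to at most 1.55 with CD3E at 0. The 6 fibroblast markers summed to 33.2 to 35.9 CPM in control, 86.6 to 87.2 in kd1 and 44.3 to 44.7 in kd2, mostly from COL1A1, and their part in the results was not tested. Most genes of the transcriptome passed the test, so the calls of members are read against that background. Of the genes tested, 78.0% were called in kd1 against control at an adjusted p under 0.05 (39.8% lower and 38.2% higher), 73.4% in kd2 against control (36.9% lower and 36.5% higher), and 68.8% between the knockdowns (33.8% lower and 34.9% higher in kd2).

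Against this background, 7 of the 10 members were lower and 2 higher in kd1, with 1 not called, and 7 were lower and 3 higher in kd2. E2F2 in both comparisons and E2F8 in the first had no knockdown library at the level that the filter on low counts asks for, so that they passed it through other groups and their lower calls support nothing. Without them, 5 of 8 members were lower in kd1 and 6 of 9 in kd2. Counted in this way, the members lower in both knockdowns were E2F1, E2F3, E2F7, RBL1 and RBL2, joined by E2F8 in kd2, whereas E2F5 and RB1 were higher. The libraries of the groups did not overlap for 9 members in the first comparison and for all 10 in the second, where 89.7% and 86.3% of all genes tested did not overlap either and 78.0% and 73.4% were called. In bulk RNA, fewer cells that carry a transcript and less of it in each cell cannot be told apart. Both comparisons use the same 2 control libraries and are not independent of each other. The numbers of members called or not overlapping are near those shares of all genes and are by themselves no result about the members.

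**Figure D1:**
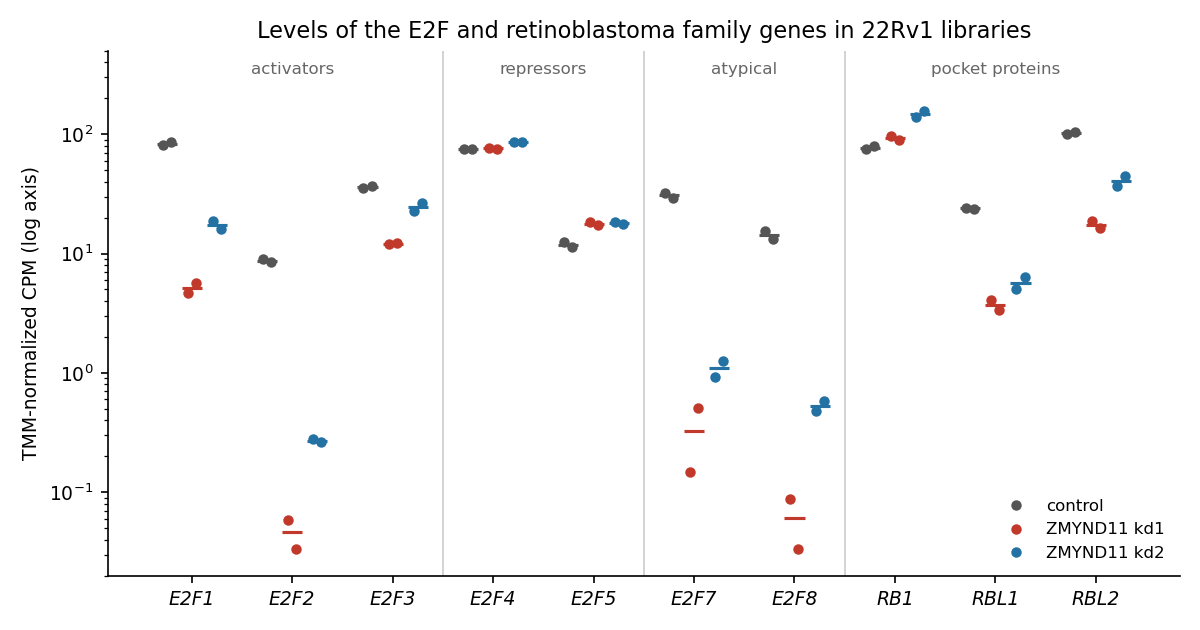
Normalized CPM (log axis) of each member in every library, with points for libraries and bars for the mean of 2, in control (grey), kd1 (red) and kd2 (blue). E2F2, E2F7 and E2F8 sit from 8.44 to 32.1 CPM in control and at or below 1.26 CPM in every knockdown library, whereas E2F4 stays between 75.1 and 86.5 CPM.

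Among the activators, which drive entry into S phase, E2F1 (chr20:33675477-33686385, minus strand, GRCh38) had 80.4 and 85.3 CPM in control, 4.65 and 5.71 in kd1, and 18.6 and 15.9 in kd2. The 3 groups were separate, with the second knockdown between the first and control. Its log2 fold change was -4.01 ± 0.11 in the first knockdown (edgeR adjusted p = 3.12e-13), a fall of 16.1-fold, and -2.26 ± 0.09 in the second (edgeR adjusted p = 2.72e-11), a fall of 4.80-fold. E2F1 is also known to induce genes of apoptosis.

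E2F2 (chr1:23506438-23531233, minus strand) had 275 and 262 counts in control, 2 and 1 in kd1, and 10 and 9 in kd2. No knockdown library reached the filter's 0.296 CPM, so E2F2 was tested only because of its control level and had to differ from control. The ratio of control to kd1 was 185 from the summed counts (95% counting interval 63.0 to 900), and that to kd2 was 32.2 (20.4 to 53.9). These intervals cover counting error only.

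E2F3 (chr6:20401879-20493714, plus strand), the third activator, had 35.7 and 37.0 CPM in control, 11.95 and 12.3 in kd1, and 22.9 and 26.4 in kd2. Its fall was the smallest among the activators in both knockdowns, and the groups were again in the same order without overlap. Its log2 fold change was -1.59 ± 0.09 in the first knockdown (edgeR adjusted p = 7.90e-10) and -0.56 ± 0.09 in the second (edgeR adjusted p = 3.52e-05). E2F3 has starts for a long and a short form, which gene totals do not separate.

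The atypical members, which bind DNA through a pair of domains and repress the genes that the activators induce, had at most 43 counts in any knockdown library. E2F7 (chr12:77021248-77065569, minus strand) had 977 and 912 counts in control, 5 and 15 in kd1, and 33 and 43 in kd2. Its log2 fold change was -6.59 ± 0.24 in the first knockdown (edgeR adjusted p = 5.84e-12) and -4.82 ± 0.19 in the second (edgeR adjusted p = 2.49e-11). The libraries of kd1 differed from each other by more in E2F7 than in the members with high counts, and 1 of the 2 was under the filter's level. Without kd1 replicate 1 the log2 fold change there was -5.91, and without replicate 2 it was -7.67. From the summed counts control exceeded kd1 by 97.7-fold in E2F7 (95% counting interval 63.1 to 160.3) and kd2 by 28.3-fold (22.5 to 36.1).

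E2F8 (chr11:19224063-19241620, minus strand) had 467 and 411 counts in control, 3 and 1 in kd1, and 17 and 20 in kd2. Neither library of the first knockdown reached the filter's level. Control exceeded kd1 by 227-fold from the summed counts (95% counting interval 88.3 to 835) and kd2 by 27.0-fold (19.4 to 38.6). In the fit the log2 fold change of E2F8 in the second knockdown was -4.75 ± 0.22 (edgeR adjusted p = 9.23e-11).

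The canonical repressors, which act with RBL1 and RBL2 in G0 and early G1 cells, did not fall in the reported fit. E2F4 (chr16:67192155-67198918, plus strand) had 75.8 and 75.1 CPM in control, 76.8 and 75.6 in kd1, and 86.3 and 86.5 in kd2. Control and kd1 overlapped, and the log2 fold change was 0.02 ± 0.06 (edgeR adjusted p = 0.813), but it became -0.34 (adjusted p = 7.50e-05) with library totals alone and -0.48 (adjusted p = 3.54e-07) with the GC and length correction. In kd2 it was higher by 0.20 ± 0.05 (edgeR adjusted p = 0.00506), a call that was lost with library totals alone (0.03, adjusted p = 0.695) and without control replicate 2 (0.19, adjusted p = 0.0528).

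E2F5 (chr8:85177154-85217158, plus strand) had 12.5 and 11.3 CPM in control, 18.2 and 17.3 in kd1, and 18.4 and 17.6 in kd2. Both knockdowns lay above control and overlapped each other. The log2 fold change was 0.58 ± 0.10 in the first (edgeR adjusted p = 9.09e-05) and 0.60 ± 0.10 in the second (edgeR adjusted p = 7.36e-05). With library totals alone the first was 0.23 (adjusted p = 0.0552), and with the GC and length correction it was 0.93. Exons of E2F5 share 997 bases, or 16.6% of its exonic length, with RBIS on the other strand, and the use of strand in counting is not given in the sources used here. RBIS had a log2 fold change of 0.09 (edgeR adjusted p = 0.416) in kd1 and -0.43 (edgeR adjusted p = 0.00142) in kd2.

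**Figure D2:**
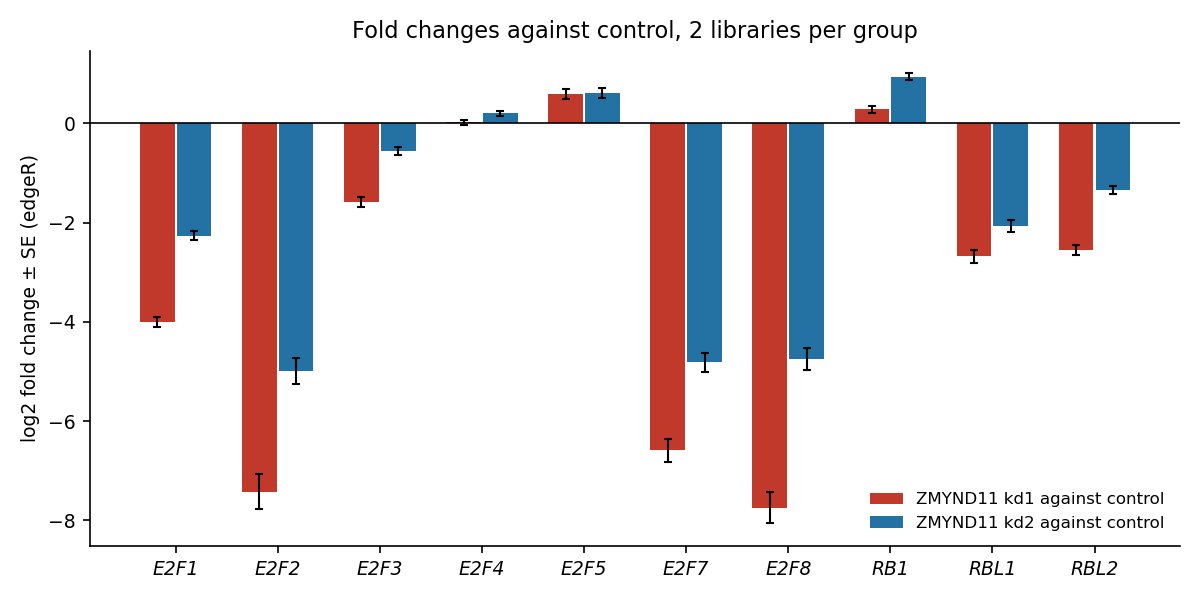
Log2 fold change against control with SE for each member in kd1 (red) and kd2 (blue), 2 libraries per group. The bars of E2F1, E2F2, E2F3, E2F7, E2F8, RBL1 and RBL2 point down in both, from -0.56 to -7.74, and those of E2F5 and RB1 point up, although RB1 in kd1 is -0.08 with library totals alone.

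Among the pocket proteins, RB1 moved apart from its relatives. RB1 (chr13:48303744-48599436, plus strand), the tumor suppressor that restrains the activators, had 75.0 and 79.0 CPM in control, 97.4 and 89.1 in kd1, and 139 and 156 in kd2. The groups did not overlap, and the second knockdown was the highest. Its log2 fold change in kd2 was 0.94 ± 0.07 (edgeR adjusted p = 1.45e-08). In kd1 it was 0.28 ± 0.07 (edgeR adjusted p = 0.00215), against -0.08 (adjusted p = 0.345) with library totals alone and 0.74 with the GC and length correction. The former scaling shifted all genes down by nearly the same amount, to a median of -0.38. The place of RB1 above that median therefore only repeats the reported fit.

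RBL1 (chr20:36996349-37095997, minus strand), the pocket protein that rises as cells leave G0 and is itself an E2F target, had 735 counts in each control library, 138 and 99 in kd1, and 181 and 217 in kd2. All 4 knockdown libraries lay below both controls. The log2 fold change was -2.68 ± 0.14 in the first (edgeR adjusted p = 2.11e-10), a fall of 6.42-fold, and -2.07 ± 0.13 in the second (edgeR adjusted p = 2.75e-09), a fall of 4.197-fold.

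RBL2 (chr16:53433977-53491648, plus strand), the main pocket protein of resting cells, had 101 and 105 CPM in control, 18.7 and 16.3 in kd1, and 36.5 and 44.5 in kd2. Here, too, no library of a knockdown reached a control. The log2 fold change was -2.55 ± 0.09 in the first knockdown (edgeR adjusted p = 6.61e-12) and -1.35 ± 0.09 in the second (edgeR adjusted p = 3.62e-09), falls of 5.87-fold and 2.54-fold. With the GC and length correction the log2 fold change in kd1 was -2.10. RBL2 shares 609 exonic bases (7.51% of its exonic length) with AKTIP on the other strand. AKTIP was higher in both knockdowns by 0.87 and 1.10 on the log2 scale. No other gene matched the counts of a member across the libraries. The processed copies of E2F3 and E2F4 in the annotation have no row of their own in the count table.

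Between the knockdowns, 9 of the 10 members were higher in kd2 than in kd1 and none was lower, where 34.9% of all genes were higher. Without E2F2, which was under the filter's level in both knockdowns, 8 of 9 were higher. Among those 8, E2F8 was under that level in both kd1 libraries, so its call supports nothing. The differences on the log2 scale were 1.74 ± 0.12 for E2F1, 1.02 ± 0.09 for E2F3, 1.21 ± 0.10 for RBL2, 0.66 ± 0.07 for RB1 and 0.61 ± 0.16 for RBL1. In E2F2 the ratio of kd1 to kd2 was 0.174 from 3 and 19 summed counts (95% counting interval 0.0329 to 0.590), and in E2F8 it was 0.119 from 4 and 37 (0.0308 to 0.331). E2F7 differed by 1.77 ± 0.40 (edgeR adjusted p = 0.00114), with 1.10 when kd1 replicate 1 was left out and 2.86 when replicate 2 was.

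For the members that had fallen in both, the second knockdown thus stood nearer to control, while ZMYND11 itself was not higher in it. For RB1 it stood farther from control. E2F4 was higher by 0.18 ± 0.05 (edgeR adjusted p = 0.00900), which did not pass without kd1 replicate 2 (0.17, adjusted p = 0.0702) and was 0.37 with library totals alone and 0.61 with the GC and length correction. E2F5 was not called (0.02 ± 0.10, edgeR adjusted p = 0.871), but its difference was -0.30 (adjusted p = 0.00876) with the GC and length correction. The same correction brought RB1 to 0.19 and RBL1 to 0.26 (adjusted p = 0.138).

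The order of the members was compared on the scale of normalized CPM per kilobase of exon, with exonic lengths from GENCODE 44 that join the exons of all transcripts. In control cells E2F1 led with a mean of 30.8, followed by E2F4 at 21.0, RBL2 at 12.7, RB1 at 11.97, E2F3 at 7.01, E2F7 at 4.89, RBL1 at 4.01, E2F8 at 3.46, E2F5 at 1.98 and E2F2 at 1.60. No neighbours in this order overlapped between their 2 libraries. In kd1 E2F4 came first at 21.2 per kilobase, before RB1 at 14.5, E2F5 at 2.96, E2F3 at 2.33, RBL2 at 2.16 and E2F1 at 1.93, and the libraries of RBL2 and E2F1 overlapped. E2F1 thus stood in first place in control and in place 6 in the first knockdown. RBL1 followed at 0.622 and E2F7, E2F8 and E2F2 were at or below 0.0520, the last pair overlapping. In kd2 E2F4 at 24.0 and RB1 at 22.9 overlapped at the top, E2F1 was at 6.42, RBL2 at 5.00 and E2F3 at 4.74 overlapped, and E2F5 was at 3.002.

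Shares within a library do not depend on how the libraries are scaled to each other. E2F1, E2F2 and E2F3 together made up 54.6% and 56.9% of the summed E2F level per kilobase in control, 14.2% and 15.8% in kd1, and 29.4% and 28.8% in kd2. E2F4 and E2F5 made up 32.9% and 32.0% in control, 85.6% and 83.9% in the first knockdown, and 70.0% and 70.3% in the second. Among these 7 E2F genes, the activators thus had the larger share in control and the canonical repressors in both knockdowns, with E2F6, a further E2F gene that is no member, not counted. E2F7 and E2F8 went from 12.5% and 11.1% in control to 0.157% and 0.311% in kd1 and 0.677% and 0.888% in kd2. These shares are descriptions of each library and were not tested.

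Of the pocket protein RNA per kilobase, RB1 made up 41.3% and 42.1% in control, 83.5% and 84.3% in kd1, and 80.1% and 78.7% in kd2. RBL2, the most abundant of them in control at 44.3% in both libraries, made up 12.7% and 12.3% in the first knockdown and 16.7% and 17.8% in the second. RB1 took its place as the leading pocket protein RNA. Summed over the 3 genes, normalized CPM per kilobase was 28.2 and 29.2 in control, 18.1 and 16.4 in kd1, and 26.9 and 30.8 in kd2, so that the sum in the second knockdown spanned that of control.

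Ratios of single members in the same library, per kilobase, gave the same picture gene by gene. E2F4 to E2F1 was 0.705 and 0.658 in control, 12.3 and 9.91 in kd1, and 3.48 and 4.06 in kd2. RB1 to E2F1 was 0.390 and 0.387 in control, 8.76 and 6.52 in the first knockdown, and 3.12 and 4.10 in the second. RB1 to RBL1 went from 2.88 and 3.09 to 22.2 and 24.7 in kd1 and 25.4 and 22.8 in kd2. The latter ratio overlapped between the knockdowns, whereas the ratios to E2F1 did not. RBL2 to RBL1 was 3.08 and 3.25 in control, 3.37 and 3.58 in kd1, and 5.30 and 5.16 in kd2, so RBL2 stood highest against RBL1 in the second knockdown.

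The partners of these proteins were followed in 5 lists of pathway genes. Among 11 E2F dimer partners and subunits of the MuvB and DREAM complexes, 8 were lower, 1 higher and 2 not called in kd1, and 6 were lower, 3 higher and 2 not called in kd2. Of all genes, 78.0% were called in kd1 (39.8% lower) and 73.4% in kd2 (36.9% lower). The list medians were -0.48 and -0.33 on the log2 scale, beside -0.03 over all genes tested in each. FOXM1, which takes over the MuvB core for mitotic genes, fell from 107 and 100 CPM in control to 2.77 and 3.21 in kd1 and 9.88 and 11.6 in kd2. MYBL2, the other activating partner of MuvB, fell from 65.4 CPM in each control library to 2.91 and 3.01 in the first knockdown and 6.49 and 5.34 in the second. Their log2 fold changes were -5.12 and -3.27 for FOXM1 and -4.46 and -3.46 for MYBL2.

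E2F6, a repressor that acts without a pocket protein, was the one gene of that list called higher in both, with 0.21 ± 0.07 in kd1 (edgeR adjusted p = 0.0140) and 1.03 ± 0.07 in kd2 (edgeR adjusted p = 4.51e-09). The first was -0.15 with library totals alone, and it was not called when any one of the control or kd1 libraries was left out (0.20 and 0.21 without control replicates 1 and 2, 0.22 and 0.21 without kd1 replicates 1 and 2). The MuvB subunits LIN52 and LIN54 were called in opposite directions, at -0.27 and -0.48 in kd1 and 0.35 and 0.35 in kd2. LIN52 in the first knockdown did not pass without control replicate 1 (-0.24) or kd1 replicate 2 (-0.21), and LIN54 there was 0.00063 with the GC and length correction. In kd2 neither passed with library totals alone (0.18 for LIN52, adjusted p = 0.0649, and 0.18 for LIN54, adjusted p = 0.0669), which gave -0.62 and -0.83 in kd1.

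Of 15 kinases, cyclins and inhibitors that set the phosphorylation of pocket proteins, 6 were higher, 5 lower and 4 not called in kd1, and 7 were higher, 6 lower and 2 not called in kd2, where 78.0% and 73.4% of all genes were called. The medians were 0.14 and 0.09, beside -0.03 over all genes in each. CCNE1 and CCNE2, the E-type cyclins that drive CDK2 and are E2F targets, had log2 fold changes of -2.15 and -3.33 in kd1 and -1.18 and -2.12 in kd2. CDKN1A (p21), an inhibitor of CDK2, rose from 208 and 205 CPM to 383 and 367 in the first knockdown and 1130 and 1080 in the second, log2 fold changes of 0.86 ± 0.05 (edgeR adjusted p = 1.15e-09) and 2.42 ± 0.05 (edgeR adjusted p = 1.30e-13). The first of these was 0.50 with library totals alone and 0.33 with the GC and length correction. CDKN2B (p15), an inhibitor of CDK4 and CDK6, rose from 5.29 and 7.05 CPM to 14.9 in both kd1 libraries and to 17.5 and 15.9 in kd2. CDKN2D (p19) was called in opposite directions, at 1.20 ± 0.08 in the first and -0.41 ± 0.09 in the second, the first being 0.11 (adjusted p = 0.176) and the second -0.66 with the GC and length correction.

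Of 14 corepressors and chromatin enzymes that pocket proteins bind, 7 were lower, 6 higher and 1 not called in kd1, and 5 were lower, 4 higher and 5 not called in kd2, with medians of -0.04 and 0.01. Of all genes, 78.0% and 73.4% were called, with a median of -0.03 in each. SIN3A, a scaffold of histone deacetylase complexes, was at -1.32 and -0.27, and KDM5A, the histone demethylase first found as an RB1-binding protein, was at -1.24 and -0.59. The GC and length correction brought SIN3A to -0.67 and 0.057 and KDM5A to -0.61 and -0.33, and library totals alone gave -0.44 for SIN3A in kd2. HDAC2 was higher, at 0.60 and 0.20, where library totals alone gave 0.25 and 0.031 and the GC and length correction 1.40 and 0.46, and the second did not pass without control replicate 1 (0.19).

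HDAC1, SUV39H1, ARID4A, ARID4B and SMARCA2 were called in opposite directions in the knockdowns. HDAC1 was at 0.27 in kd1 and -0.52 in kd2, and SUV39H1, which writes the H3K9 methyl mark, at 0.50 and -0.72. The RB1-binding proteins ARID4A and ARID4B were at -0.33 and -0.45 in the first and 0.31 and 0.22 in the second, and the chromatin remodeller SMARCA2 at -0.29 and 0.25. Under library totals alone or the GC and length correction, each of these genes lost at least 1 of its calls or turned sign. The values in kd1 were -0.68 for ARID4A, -0.80 for ARID4B and -0.64 for SMARCA2 with library totals alone. They turned sign with library totals alone for HDAC1 (-0.083), and with the GC and length correction for ARID4A (0.18), ARID4B (0.18) and SMARCA2 (0.43). SUV39H1 in kd1 was 0.15 (adjusted p = 0.483) with library totals alone, 0.0078 (adjusted p = 0.972) with the GC and length correction and 0.51 (adjusted p = 0.0859) in the DESeq2 Wald test. In kd2 library totals alone brought ARID4A to 0.14 (adjusted p = 0.1695), ARID4B to 0.048 (adjusted p = 0.549) and SMARCA2 to 0.084 (adjusted p = 0.172), and the GC and length correction raised ARID4B to 0.44 and SMARCA2 to 0.70. Calls were also lost for SUV39H1 in kd1 without control replicate 1 (0.48), control replicate 2 (0.52) or kd1 replicate 2 (0.41), and in kd2 for ARID4A without control replicate 2 (0.24) and for ARID4B without control replicate 1 (0.21). ARID4B in kd2 was 0.13 without kd2 replicate 2.

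Of 6 parts of ubiquitin ligases that act on E2F, pocket or CDK inhibitor proteins, 3 were lower, 1 higher and 2 not called in kd1, and 4 were lower and 2 not called in kd2, with medians of -0.66 and -1.38. Of all genes, 78.0% and 73.4% were called, and the median was -0.03 in each. SKP2, which marks p27 for degradation, fell from 73.5 and 81.2 CPM to 15.8 and 14.9 in the first knockdown and 19.8 and 21.2 in the second. CDC20, an activator of the anaphase-promoting complex, fell from 76.3 and 77.2 CPM to 1.91 and 3.18 and to 2.88 and 3.503. Their log2 fold changes were -2.33 and -1.92 for SKP2 and -4.93 and -4.59 for CDC20, and SKP2 in kd1 was -1.52 with the GC and length correction.

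The G1/S target genes of E2F fell together. Of 29 such genes, 28 were lower and none higher in each knockdown, where 39.8% and 36.9% of all genes were lower. The medians were -2.60 in kd1 and -1.98 in kd2. The list was chosen with earlier results of these data known, so its counts are a description and no independent support. The deepest falls by the mean of both knockdowns were in CDC45, part of the replicative helicase, from 71.6 and 70.1 CPM to 1.06 and 1.01 and to 4.25 and 3.999, and in CDCA7, a factor for DNA methylation upkeep, from 38.4 and 37.0 CPM to 1.32 in each kd1 library and to 3.08 and 2.01. SLBP, the binding protein of histone mRNA stem loops, was not called in either, at -0.02 ± 0.07 (edgeR adjusted p = 0.834) and -0.08 ± 0.07 (edgeR adjusted p = 0.354). Between the knockdowns 23 of the 29 were higher in kd2, where 34.9% of all genes were higher and 33.8% lower. The genes CDT1 and CHEK1 were lower, at log2 differences of -0.65 and -0.71. SLBP, CDT1 and CHEK1 were picked out after their values were seen.

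**Figure D3:**
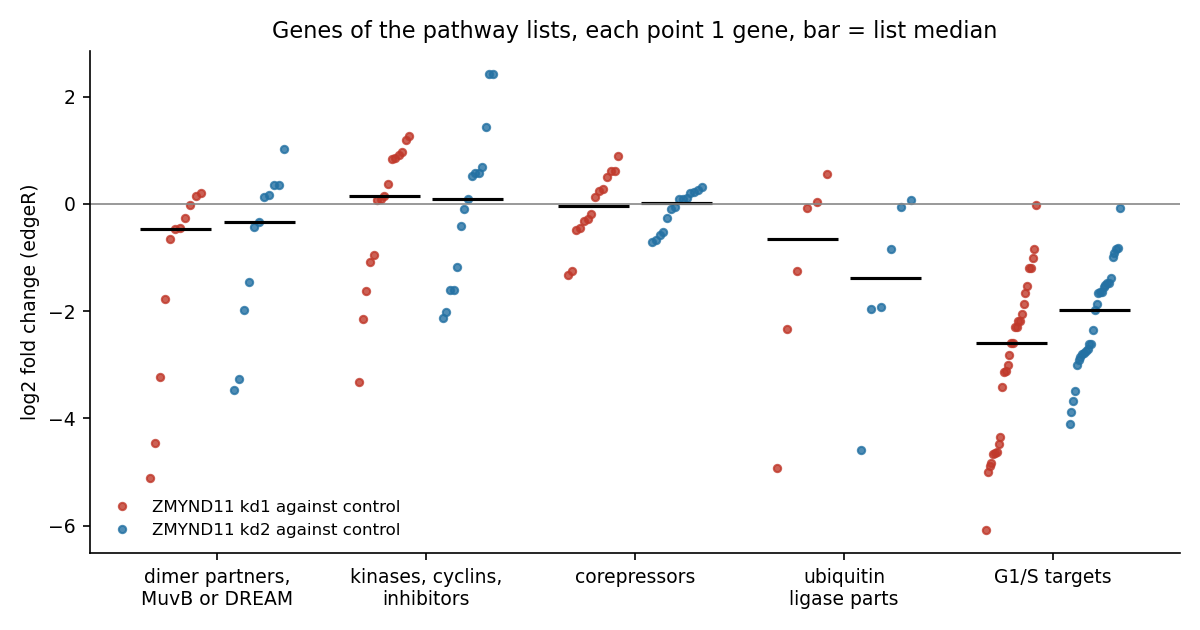
Log2 fold change against control of each gene in the 5 pathway lists, 1 point per gene, in kd1 (red) and kd2 (blue), with the list median as a black bar. The G1/S targets lie below 0 in both knockdowns with medians of -2.60 and -1.98, whereas the corepressors lie on both sides of 0 with medians of -0.04 and 0.01.

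The genes whose levels over the 6 libraries were most like those of E2F1, RBL1 and RBL2 were found by the distance between profiles of log2 CPM centred on the control mean, among 12481 genes. CENPK, SGO2 and MYO1A were nearest to E2F1, at distances of 0.275, 0.288 and 0.534. CENPK is a part of the kinetochore and SGO2 a protector of centromeric cohesion. CBX2, COL14A1 and STAG3L5P were nearest to RBL1, at 0.292, 0.297 and 0.304. RBL2 was most like CANX, an endoplasmic reticulum chaperone, SH3RF1 and MEX3A, at 0.163, 0.199 and 0.217. CANX had log2 fold changes of -2.51 and -1.27 in kd1 and kd2, beside -2.55 and -1.35 for RBL2. These are descriptions over 6 libraries of 3 groups.

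The changes of E2F4, E2F5 and RB1 in the first knockdown lay near enough to 0 for another scaling to turn their sign or their call. With library totals alone, the median log2 fold change of all genes moved to -0.38 in kd1 and -0.20 in kd2, and to 0.21 between the knockdowns. Calls that were higher then made up 35.3%, 40.8% and 61.1% of all calls in the 3 comparisons, beside 49.0%, 49.8% and 50.8% in the reported fit. In the first knockdown E2F4 at -0.34 lay near the shifted median of all genes, and RB1 at -0.08 lay above it. This scaling shifts all genes nearly alike, so these places only repeat the reported fit.

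**Figure D4:**
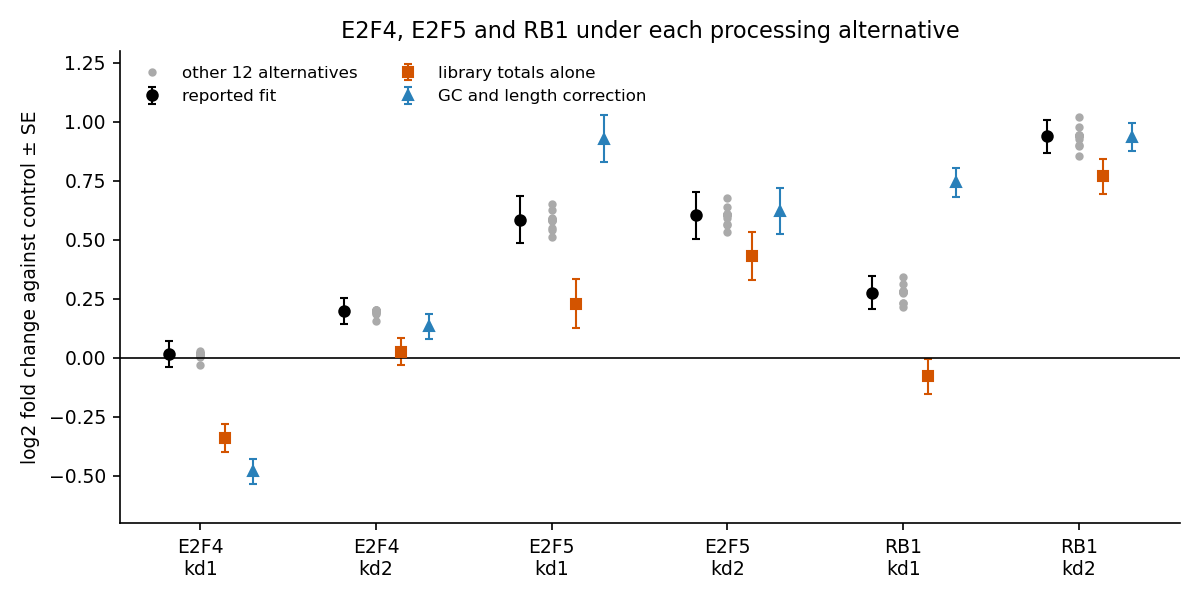
Log2 fold change against control with SE for E2F4, E2F5 and RB1 in each knockdown, in the reported fit (black), with library totals alone (orange), with the GC and length correction (blue) and in the other 12 alternatives (grey). E2F4 in kd1 goes from 0.02 to -0.34 and -0.48 in the 2 scalings, and RB1 in kd2 stays above 0 in all of them.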

How the data were processed

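Total RNA of 6 libraries of 22Rv1 cells was prepared with a poly(A) or rRNA removal step (which one is not stated) and sequenced as read pairs. The authors trimmed the reads with AdapterRemoval and aligned them to hg38, and the submitters' processing notes name FastQC 0.11.9, STAR 2.7.9a and HTSeq 0.13.5. The authors deposited a table of unnormalized read counts by gene symbol. The annotation and the use of strand in counting are not given in the sources used here.

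Samples were grouped by their titles. The test was run in R 4.3.3 with edgeR 4.0.16 (TMM normalization, filterByExpr, quasi-likelihood test, one fit of 3 groups with 3 residual degrees of freedom), with Benjamini-Hochberg adjustment over 16510 genes and calls at an adjusted p under 0.05. Standard errors are the absolute log2 fold change over the root of F. CPM were computed with TMM library sizes, and totals of 26844128 to 38193748 counts set the precision of low counts. Gene positions and exonic lengths came from GENCODE 44 on GRCh38, where 32565 of 35322 symbols matched 1 gene, 287 matched several and 2470 none, and promoter windows came from RefSeq. Replicates differed by more than sampling noise, with chi-square per degree of freedom of 2.37, 3.97 and 10.7 in control, kd1 and kd2.

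The 10 members and the gene lists were chosen with earlier results of these data known. The text names the members, ZMYND11, in each list up to 2 genes with the largest falls and 2 with the largest rises called the same way in both knockdowns, list genes called in opposite directions, and the 3 genes most like E2F1, RBL1 and RBL2 by Euclidean distance, among genes with a mean of at least 1 on the log2 CPM scale. Alternatives were DESeq2 size factors, library totals alone, a Wald test in DESeq2 1.42.0, a fit of all genes without the filter, a stricter one (10 or more counts in each library), the replicate number as a block, fits of 2 groups alone, each library left out, and offsets that remove trends with GC content and length (lowess span 0.3). On simulated counts of 16017 genes with 200 changed, the fit recovered 86.0% in kd1 against control and 89.0% in kd2 against control. There, 8.02% and 9.65% of calls were false. In the data 78.0% and 73.4% of genes were called, so these rates do not carry over to the reported calls. Protein sequences were not analysed here. Python 3.11.15 and matplotlib 3.10.9 were used for tables and figures.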

Additional observations from a re-analysis of the deposited data

Results flagged for a closer look

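The effects of the 2 knockdowns differed for 9 of the 10 members by a test of the difference itself, kd2 against kd1, in edgeR's quasi-likelihood fit, where 68.8% of all genes tested were called. On the log2 scale the difference was 1.74 for E2F1, 2.43 for E2F2, 1.02 for E2F3, 0.18 for E2F4, 1.77 for E2F7, 2.997 for E2F8, 0.66 for RB1, 0.61 for RBL1 and 1.21 for RBL2. Those of E2F2 and E2F8 rest on 3 and 4 summed counts in kd1. E2F2 was under the filter's level in all 4 knockdown libraries and was tested only because of its control level. Without it 8 of 9 members differed. E2F8, counted among those 8, was under that level in both kd1 libraries, so neither call supports a difference. That of RBL1 did not pass with the GC and length correction (0.26, adjusted p = 0.138), and that of E2F4 did not without kd1 replicate 2 (0.17, adjusted p = 0.0702). That of E2F7 was 1.10 without kd1 replicate 1 and 2.86 without replicate 2, and that of E2F8 was 3.82 without kd1 replicate 1.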

How the results depend on the processing

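Of 410 member values over 14 alternatives, 398 kept their direction and their side of the threshold, 5 kept only the direction and 7 turned sign. All 252 counts of called members and list genes stayed within 1.5 times the reported count, 6, 7 and 6 members being called with at least 10 counts in every library, where E2F2, E2F7 and E2F8 were not tested. In kd1, E2F4 turned to -0.34 with library totals alone, -0.029 with at least 10 counts in every library and -0.48 with the GC and length correction, and RB1 to -0.078 with library totals alone. Between the knockdowns, E2F5 turned to -0.30 with the GC and length correction and ranged from -0.024 to 0.060 with each library left out.

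Of 616 values of 22 named list genes, 587 kept direction and call, 22 kept only the direction and 7 turned sign: with library totals alone, E2F6 (-0.15) and HDAC1 (-0.083) in kd1, and with the GC and length correction, LIN54 (0.00063), ARID4A (0.18), ARID4B (0.18) and SMARCA2 (0.43) in kd1 and SIN3A (0.057) in kd2. Across 15821 genes, fold changes in kd1 had a Spearman correlation of 0.206 with GC content and -0.290 with length, a description of genes that are not independent; why values moved was not tested.

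The differences of replicate 2 from replicate 1 correlated at 0.006, -0.026 and -0.044 between groups, so no shared effect of the replicate number was seen. Whether same-numbered libraries shared a culture is not stated and cannot be read from these values. With the replicate block, 12545, 11688 and 10978 genes were called in the 3 comparisons, against 12882, 12118 and 11355 without it, and 9, 10 and 9 members. Depth limits E2F2, E2F7 and E2F8, which had 1 to 15 counts in kd1 libraries.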
